A study of Takifugu rubripes with 9 samples.

Results

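The miRNAs described here are miR-338 and miR-219 of torafugu (Takifugu rubripes), a pufferfish. They were chosen by name as all sequences filed under mir-338 or mir-219 in 8 small RNA libraries, with their levels in these libraries already known, so the levels below are a description with no test. The rule found 107 distinct sequences of 8194, which carried 59299 of the 5232809 annotated reads. Of these, 57 sequences with 58301 reads were named mir-338 and 50 sequences with 998 reads were named mir-219.

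The study compared small RNAs among tissues dissected from wild type adult fish, with no treatment. The libraries used here were from brain, slow muscle, eye, liver, intestine, heart, ovaries and testes, and the fast muscle library was not analysed here. There was 1 library per tissue, so every interval below covers counting error only and says nothing of the spread between fish. Several marker miRNAs were highest in the library of the matching label, with the summed neural list in brain, the summed muscle list in slow muscle, intestinal miRNAs in intestine, miR-122 in liver (55740.4 RPM), the retina and lens list in eye (40116 RPM) and miR-202 in ovaries (1979 RPM). The neural miRNA miR-124 on its own was lower in brain (77630.4 RPM) than in eye (110682 RPM). The muscle miRNA miR-499 was lower in slow muscle (4111 RPM) than in heart (8833 RPM). No marker particular to heart or testes was on the lists. Each tissue is a mixture, so a higher share of cells that make a miRNA and a higher amount in each cell cannot be told apart.

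MicroRNAs are short RNAs that pair with messenger RNAs mainly through the seed, bases 2 to 8, and lower the output of those messages. A hairpin precursor yields a 5p and a 3p arm, of which one is usually kept. In mouse and zebrafish, miR-219 and miR-338 promote the maturation of oligodendrocytes, the glial cells that wrap axons in myelin. In mouse, miR-219 represses the PDGF receptor Pdgfra and the transcription factor Sox6, which keep oligodendrocyte precursors from maturing. In mammals, the miR-338 hairpin lies in an intron of AATK, a kinase gene expressed in neurons. In the RefSeq gene table of assembly fTakRub1.2, the record of fru-mir-338 likewise lay within the span of aatka, 1 of the 2 aatk genes listed there. The record of fru-mir-219-2 lay within the span of rxrba, a retinoid X receptor gene, beside the collagen gene col11a2.

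The sequences that carry the results are given 5′ to 3′ as the deposited files hold them, in DNA letters, with the seed in capitals. The entries for the arms without a mature record are the most abundant of the reads that matched a precursor only. mir-3065 is shown because its reads turned out to be a form of miR-338-3p.
miR-338-3p: tCCAGCATcagtgattttgttg
miR-338-5p: aACAACATcctggtgctgcctgagt
miR-338-5p, form recorded under the medaka entry: aACAATATcctggtgctgcccga
miR-219-5p: tGATTGTCcaaacgcaattctt
miR-219-1-3p: aGAATTGTgcctggacatctgt
miR-219-2-3p: gGAGTTGTggatggacatcacg
mir-3065: tCCAGCATcagtgattttgttga

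In a search of all 8 libraries, the seed of miR-338-3p was found under the names mir-338 and mir-3065 alone. Each of the other 5 seeds was found under 1 name. No read was the reverse complement of any of these arms. The 5p arm of miR-219 is the same in the records mir-219-1 and mir-219-2, whereas their 3p arms differed at 7 of 22 bases. Counted from 1 at the 5′ end, with the base of miR-219-1-3p first, the first of these differences were A1G and A4G, and the second of them lies in the seed.

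miR-338-3p was one of the most abundant miRNAs of the brain and was present in every library, at levels that spanned more than 2 orders of magnitude. Levels are given as RPM, the reads of a miRNA for every 1000000 reads of 18–25 nt in the library. The brain library held 33239 reads of miR-338-3p, or 12476 RPM with a 95% Wilson interval of 12344 to 12610, which gave it rank 5 among the names and arms of that library. The slow muscle library held 11829 reads, or 6146 RPM (6036 to 6257). All other libraries were lower than both. The eye had 3691 reads and 2660.2 RPM (2576 to 2747), the liver 2224 reads and 1846 RPM (1771 to 1925), and the intestine 3851 reads and 1127 RPM (1092 to 1163). The heart had 1471 reads and 583 RPM (554 to 614), and the ovaries 1698 reads and 357 RPM (340.1 to 374). The testes, with 50 reads and 23.6 RPM (17.9 to 31.2), were the lowest.

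Neighbours in this order differed beyond counting error at every step. Brain was 2.03 times slow muscle (exact Clopper-Pearson interval 1.99 to 2.07), slow muscle 2.31 times the eye (2.23 to 2.40), the eye 1.44 times the liver (1.37 to 1.52) and the liver 1.64 times the intestine (1.55 to 1.73). The intestine was 1.93 times the heart (1.82 to 2.05), the heart 1.64 times the ovaries (1.52 to 1.76) and the ovaries 15.1 times the testes (11.4 to 20.4). The lower part of the order depended on the denominator, because annotated miRNAs made up 11.3% of the 18–25 nt reads of the ovaries and 2.58% of those of the testes, against 33.1% to 37.7% in the other libraries. With annotated reads as the denominator, miR-338-3p stood at 1667 RPM in the heart and 3158 RPM in the ovaries, which turned their order round. The ovaries also stood above the heart under the other denominators tried, and above the intestine when known miRNA reads of the study's read table were used. Those known reads were a wider class than the annotated reads counted here, because the paper also accepted looser matches as miRNAs. Per annotated read, brain exceeded the testes 39.0 times rather than 528 times.

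**Figure D1:**
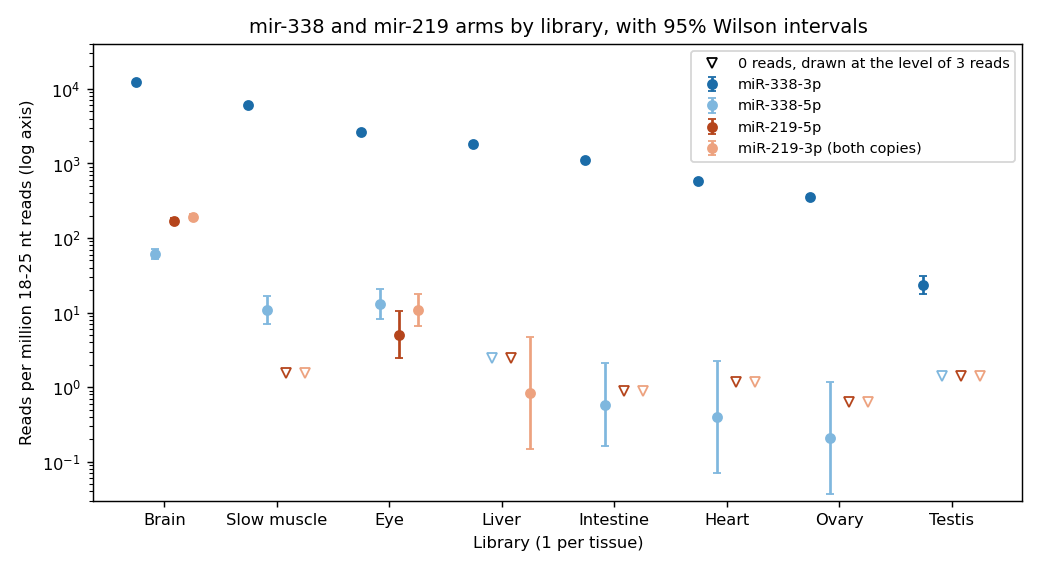
Level of each arm of mir-338 and mir-219 in the 8 libraries, in RPM on a log axis. For miR-338-5p only the fugu form is drawn, without the form recorded under the medaka entry. Points are single libraries, bars are 95% Wilson intervals and open triangles mark arms with 0 reads, drawn at the level of 3 reads. miR-338-3p lies between 23.6 and 12476 RPM in all 8 libraries, and miR-219-5p has reads in brain and eye only.

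miR-219, in contrast, was nearly restricted to the brain library. All mir-219 reads together numbered 974 in brain, or 366 RPM (343 to 389), and 23 in the eye, or 16.6 RPM (11.1 to 24.9). The liver had 1 read, and slow muscle, intestine, heart, ovaries and testes had 0. The 95% Wilson upper limits in those 5 libraries were between 0.807 and 2.00 RPM, and the floor of 3 reads was between 0.63 and 1.56 RPM. miR-219-5p, the arm recorded as mature, had 426 reads or 160 RPM in brain and 6 reads or 4.32 RPM in the eye. The brain level was thus 37.0 times that of the eye, with a wide interval of 16.8 to 101 because the eye count was small. The ratio was lower for all mir-219 reads, at 22.05 (14.61 to 34.96), and for miR-219-1-3p, at 16.98 (10.19 to 30.57). With slow muscle, which had 0 reads, taken at 3 reads for the library, miR-219-5p in brain was 102.6 times the level in slow muscle, and the exact 95% lower limit of the ratio was 83.1, where miR-338-3p in brain was 2.03 times its level in slow muscle.

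Set against all names, a 2-fold difference was common between these tissues. Among names and arms with at least 100 RPM in either library of a pair, 75 of 170, or 44.1%, were at least 2-fold higher in brain than in slow muscle, and the share was also 44.1% for brain over eye. miR-338-3p, at 2.03 times in the first pair and 4.69 times in the second, and miR-219-5p were among both sets. A 2-fold lead of brain over every other library was found for 19.1% of 215 names, and miR-338-3p and miR-219-5p both had it. The slow muscle against brain ratio was part of the rule by which these miRNAs were chosen, and it was also the smallest brain ratio of miR-338-3p, so nothing is read from the share for brain over slow muscle or from the lead of miR-338-3p over every other library.

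Among the miRNAs that were highest in brain, the levels in slow muscle ran from 49.3% of those in brain down to 0, and the values below describe where miR-338-3p and miR-219 lay, with no test. In the set of 215 names that reached 100 RPM anywhere, 56 were highest in brain, and slow muscle reached a median of 6.85% of the brain level among them. miR-338-3p reached 49.3%, the highest of the 56. The next was let-7c 5p with 41.4%, a member of the let-7 family that is known for its role in the timing of development, followed by miR-29b-3p with 35.6%. Among the libraries analysed, which left out fast muscle, slow muscle was second-highest for 2 of the 56 names and the eye for 28. These 2 were miR-338-3p and mir-3065, whose reads were forms of miR-338-3p, so they are not separate cases. At the other end were miR-219-5p and the mir-219 precursor reads, which belonged to the 4 names with 0 reads in slow muscle. The other 2 of these were miR-9-3p and miR-724-5p.

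**Figure D2:**
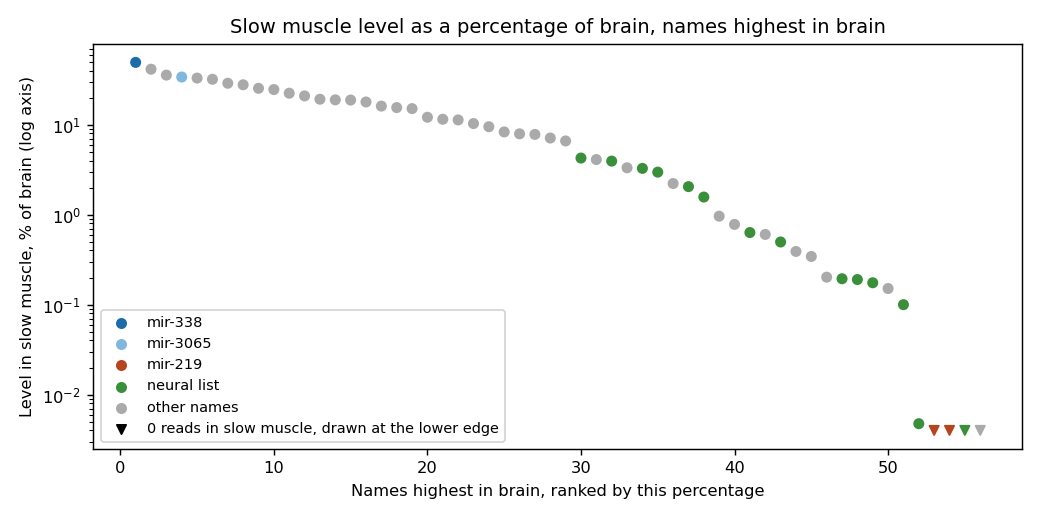
Level in slow muscle as a percentage of the level in brain, on a log axis, for the 56 names highest in brain, ranked. Each point is 1 name and arm, and triangles have 0 reads in slow muscle. mir-338 stands at the high end with 49.3%, the arms of the neural list lie at 4.26% or less, and mir-219 is among the 4 names with 0 reads.

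The slow muscle library carried little of the miRNAs known from neurons. The 8 neural names (miR-124, miR-9, miR-128, miR-137, miR-153, miR-132, miR-138 and miR-129), summed over their letters and arms, reached 123578 RPM in brain and 1107 RPM in slow muscle, or 0.896%. The share of single names ran from 0.0256% for miR-9 to 4.25% for miR-129, with a median of 0.828%. miR-124, an abundant miRNA of neurons, had 77630.4 RPM in brain and 150 RPM in slow muscle. For every 1000 reads of the neural list there were 101 reads of miR-338-3p in brain and 5551 in slow muscle, against 22.7 in the eye. The slow muscle and brain levels of miR-338 were part of the rule by which it was chosen, so nothing is read from these proportions. The neural list summed to 117007 RPM in the eye, of which miR-124 alone made up 110682 RPM. Every other name of the list was higher in brain than in the eye. Among them was miR-129, with 12879 RPM in brain and 2685.5 RPM in the eye. miR-338-3p was 4.69 times higher in brain than in the eye.

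Slow muscle was recognisable by the muscle miRNAs miR-1, miR-133, miR-206 and miR-499, which summed to 939.5 RPM in brain, 145058 RPM in slow muscle and, in the heart, 59829 RPM. miR-338-3p had 6146 RPM in slow muscle, against 583 RPM in heart, so slow muscle exceeded heart 10.5 times (9.98 to 11.1). The heart held miR-1 and miR-133 as well, and miR-499 was higher in heart, with 8833 RPM against 4111 RPM in slow muscle. By contrast, miR-206, a skeletal muscle miRNA, had 34809 RPM in slow muscle, against 40.9 RPM in heart. Among names with at least 100 RPM in either of these libraries, 22.8% were at least 2-fold higher in slow muscle than in heart. When brain was set aside, 7.22% of 194 names had a 2-fold lead in slow muscle over every remaining library, and miR-338-3p was among them. For miR-338-3p this depended on the denominator, since its lead over the eye could fall below 2-fold. Slow muscle and eye stood at 15844.4 and 9396.4 RPM with annotated reads scaled by TMM. Per known miRNA read of the study's read table they stood at 7262.4 and 3847.9 RPM. The fast muscle library was not analysed, so a lead of slow muscle does not separate it from skeletal muscle in general. The slow muscle level of miR-338 was part of the rule by which it was chosen, so nothing is read from either share. Markers of other tissues were also present in slow muscle. The intestinal list of miR-192, miR-194, miR-215, miR-200, miR-141 and miR-429 summed to 1131 RPM in brain and 6610 RPM in slow muscle, against 311 RPM in heart and 170448 RPM in intestine, where miR-338-3p itself was at 1127 RPM. The endothelial miR-126 stood at 8735 RPM in brain, 36602 RPM in slow muscle and, in the heart, 57432 RPM, and the liver miRNA miR-122 at 24.9 RPM in slow muscle. The part of these other sources in the slow muscle level of miR-338-3p was not tested.

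The proportion of the 2 miRNAs to each other therefore differed among libraries. Brain had 29.1 mir-219 reads for every 1000 mir-338 reads, and the eye had 6.20. At the brain proportion, 346 mir-219 reads would have accompanied the 11857 mir-338 reads of slow muscle and 113 those of intestine, where 0 were counted. Read counts limited this comparison least in slow muscle, where 0 of 11857 reads allows a mir-219 share of up to 0.0253%. The testes, with 50 mir-338 reads, would have held 1.46 mir-219 reads at that proportion, so a difference from brain was not detectable there at this depth.

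Both arms of the miR-219 hairpins were recovered, in nearly equal amounts. When the reads that matched only a precursor were placed by an exact overlap of at least 14 nt, the brain held 456 reads of the 5p arm, 489 of miR-219-1-3p and 23 of miR-219-2-3p. The 3p arms thus made up 52.9% (49.7 to 56.0) of the placed reads in brain, and 15 of 22 reads in the eye. Most 3p reads came from the first copy, since miR-219-2-3p was 4.49% (3.01 to 6.65) of the 3p reads in brain. The 5p arm could be assigned to a copy only where a read ran past the shared part. In brain 340 fugu 5p reads fitted both copies, 28 fitted mir-219-1 alone and 2 fitted mir-219-2 alone. Among reads that could be assigned, both arms thus showed more recorded under mir-219-1, though reads that fitted both copies were not divided. The 5p forms assigned to mir-219-1 ended in T past the shared part. A T added to a read of either copy was not told apart from these forms. The longest forms recorded under the fugu entries, with 19 reads and 1 read in brain, differed in their last base, capitalised here.
mir-219-1, 5p, longest form: tgattgtccaaacgcaattcttgT
mir-219-2, 5p, longest form: tgattgtccaaacgcaattcttgC

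The ends of miR-219-5p were ragged. The 22 nt sequence identical to the mature entry had 86 reads in brain, fewer than the 21 nt form with 99 reads. Counted by length over all forms, brain reads numbered 96 at 19 nt, 106 at 21 nt, 101 at 22 nt and 58 at 23 nt. Of the 96 reads of 19 nt, 44 were of a form recorded under the entry of the tunicate Ciona savignyi, T19A relative to the mature fugu entry (tgattgtccaaacgcaatA, with the differing base in capitals and positions counted from the 5′ end). In brain, 29 of 456 reads of the arm began 4 bases downstream of the mature start, a start with a different seed. In the 3p arm of mir-219-1, 92.0% of the brain reads had 1 start, and its 3′ ends were not compared with those of the 5p arm.

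miR-338 was, by contrast, almost wholly a 3p miRNA. No 5p read was recorded as mature under mir-338. With the precursor reads placed, the 5p arm had 177 of 33422 reads in brain, or 0.530% (0.457 to 0.613), 26 of 11856 in slow muscle, or 0.219% (0.150 to 0.321), and 21 of 3712 in the eye, or 0.566% (0.370 to 0.863). The share in brain was higher than in slow muscle beyond counting error, and brain exceeded slow muscle 5.64 times (3.57 to 9.36) for the fugu form of the 5p arm, against 2.03 times for the 3p arm. That 5p ratio leaves out the form recorded under the medaka entry, at 4.88 RPM in brain and 2.60 RPM in slow muscle. Every one of the remaining 5 libraries had 9 reads of the arm or fewer. The most abundant 5p sequence was 25 nt, the longest length in the files, so longer 5p reads were not counted.

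A part of the 5p reads carried the form recorded under the medaka entry, which differed from the fugu form by C6T and T21C over 23 bases, with the fugu base first and positions counted from the 5′ end. Position 6 lies in the seed. This form was 13 of 177 5p reads in brain, or 7.34% (4.34 to 12.2), 5 of 26 in slow muscle and 7 of 9 in intestine, or 77.8% (45.3 to 93.7). The intestinal share exceeded that of brain although it rested on 9 reads. Whether a further locus of the fugu genome encodes it was not tested.

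The 3p arm had a fixed start and a variable end. All 1740 reads named mir-3065, which in the human genome lies on the strand opposite mir-338, were 4 sequences that overlapped miR-338-3p on the same strand, the main one being the mature sequence with an added A. They were counted with miR-338-3p for the end forms. Over all libraries 415 of 59793 reads, or 0.694%, began elsewhere than the mature entry, and 398 of these began 1 base downstream. The main end forms are given with the added bases in capitals.
mature entry: tccagcatcagtgattttgttg
shorter by 1 base: tccagcatcagtgattttgtt
next base of the fugu entry: tccagcatcagtgattttgttgC
added A, recorded as mir-3065: tccagcatcagtgattttgttgA
added T, recorded under zebra finch: tccagcatcagtgattttgttgT
added CA, recorded under medaka: tccagcatcagtgattttgttgCA

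The sequence identical to the mature entry made up 57.0% of the reads in brain, 56.3% in slow muscle and 57.8% in the eye, and 40.4% in the heart. The form with the next fugu base C was second. Together with still longer fugu forms it was 24.5% (24.05 to 24.95) of the reads in brain and 31.4% (30.6 to 32.3) in slow muscle, against 43.2% (40.7 to 45.7) in heart and 44.1% (42.1 to 46.1) in liver. Brain had the largest share of shortened forms, 12.9% (12.5 to 13.2), against 7.17% (6.73 to 7.65) in slow muscle, 8.94% (8.07 to 9.90) in the eye and 2.86% (2.25 to 3.62) in liver. The heart, with 10.2% (8.75 to 11.8), came nearest. The brain library was thus shifted to shorter ends of miR-338-3p relative to every other library, while the liver, the heart and the gonads held the larger shares of longer ends.

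**Figure D3:**
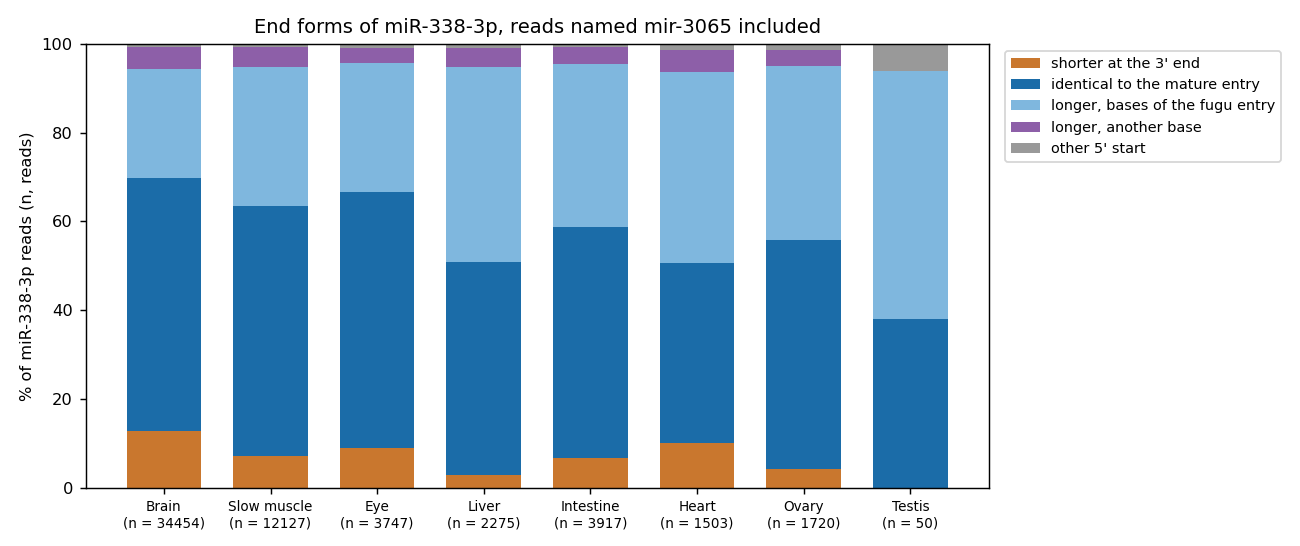
End forms of miR-338-3p in each library as a percentage of its reads, with the reads named mir-3065 included and the number of reads under each library. Colours give the 5 classes of ends. The shortened class takes 12.9% in brain and 7.17% in slow muscle, and the class with fugu bases added takes 24.5% and 31.4%.

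Other arms also had shorter ends in brain. Among 84 arms with at least 200 reads of the main start in both libraries, 63, or 75.0%, had a larger share of shortened ends in brain than in slow muscle, with a median difference of 3.37 percentage points. Some arms, such as let-7-5p and miR-126a-3p, had 0 shortened reads in both libraries and lower this share and the median. The arms also included mir-3065, whose reads were forms of miR-338-3p, with 0 shortened reads in both. The difference for miR-338-3p on the same measure, which leaves out the reads named mir-3065, was 6.02 points, from 13.4% in brain and 7.40% in slow muscle, and 30 of the 84 arms had a larger one. Brain exceeded liver by 10.5 points and the ovaries by 9.13 points for miR-338-3p, and 12 of 78 and 14 of 68 arms had a larger difference in these comparisons. The numbers were 27 of 79 arms against the eye, 21 of 87 against the intestine and 38 of 83 against the heart. The part of RNA quality or of adapter trimming in these ends was not tested.

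**Figure D4:**
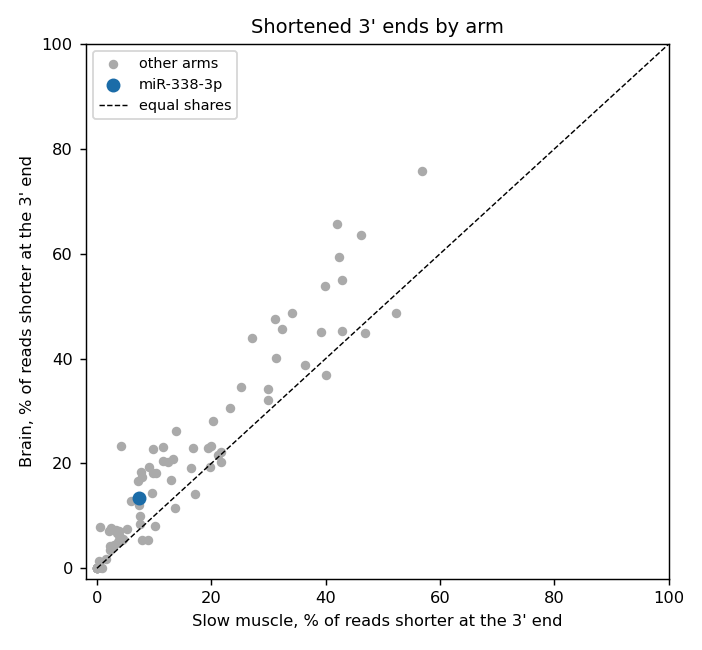
Share of reads shortened at the 3′ end in brain (vertical axis, percent) and in slow muscle (horizontal axis, percent) for the 84 arms with at least 200 reads in both. Each point is 1 arm, the dashed line marks equal shares and miR-338-3p is drawn in blue. The points lie above the line for 63 arms, miR-338-3p at 13.4% and 7.40% among them.

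Ends that the fugu entry does not continue were 4.98% (4.76 to 5.22) of the miR-338-3p reads in brain and 4.53% (4.17 to 4.91) in slow muscle, and between 3.42% and 4.99% in the other libraries but the testes, where 0 of 50 reads had one. The added A accounted for 1722 of these 2779 reads. It was 3.49% (3.30 to 3.69) of all reads of the arm in brain, 2.42% (2.17 to 2.71) in slow muscle and 1.49% (1.15 to 1.94) in the eye, and 1.28% (0.846 to 1.93) in the ovaries, while the testes had 0 of 50 reads. The added T showed another order, with 0.987% in brain, 1.39% in slow muscle and 2.40% (1.73 to 3.30) in the heart. The form with CA was 0.267% in brain and 0.412% in slow muscle, and 1.10% (0.745 to 1.62) in liver. Only tails that happen to match an entry of some species are in the files, so these shares leave out tails of other kinds.

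Over the 8 libraries, the profile of miR-338-3p was most like that of the reads named mir-3065. Those reads were forms of miR-338-3p itself, so this likeness does not concern another miRNA. Likeness was measured as the overlap of the shares that each library takes of the RPM summed over libraries, for which 1 means identical profiles, among 164 other arms that reached 100 RPM anywhere. The overlap was 0.870 for mir-3065, 0.773 for miR-218a-5p, 0.766 for miR-2779-3p, 0.756 for miR-125a-5p and 0.747 for miR-99-5p. Slow muscle reached a smaller part of the brain level for the last 4 than the 49.3% of miR-338-3p. It reached 25.4% for miR-99-5p, which had 932 RPM in brain and 237 RPM in slow muscle, 7.80% for miR-2779-3p, 7.11% for miR-125a-5p and 4.10% for miR-218a-5p. miR-219-5p, with 97.4% of its summed RPM in brain, was most like miR-137-3p (0.981), miR-153a-3p (0.980), miR-212-3p (0.966), miR-135a-5p (0.947) and miR-724-5p (0.925). miR-137, miR-153 and miR-212 are known from neurons, and miR-137-3p had 890.0 RPM in brain and 13.0 RPM in the eye. The overlap between miR-338-3p and miR-219-5p themselves was 0.521, since brain took 49.5% and slow muscle 24.4% of the summed RPM of miR-338-3p. mir-2964, the human partner on the strand opposite a mir-219 hairpin, had 0 reads.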

How the data were processed

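Total RNA of each tissue was fractionated by the authors, sequenced on a SOLiD instrument and trimmed of adapters. Reads of 18–25 nt were collapsed and matched without mismatches to miRBase entries of any species in CLC genomics workbench. The deposited values are raw read counts per sequence. The version of CLC is not given in the sources used here. Counts were summed by name and arm in Python 3 with repeated header lines dropped, and divided by the 18–25 nt totals of the study's read table (1204477 to 4760693 reads). Annotated reads numbered 54540 to 1207961. Intervals are Wilson or Clopper-Pearson at 95%. A count of 0 was given a floor of 3 reads. With 1 library per tissue no test between tissues was run. The members and the lists were chosen with earlier results of these data known. Named miRNAs were all members, the 5 arms nearest to miR-338-3p and to miR-219-5p in profile, mir-3065, mir-2964 and the marker lists. The other lists were retina and lens (3095 RPM in brain, 2145 RPM in slow muscle), red blood cells (7544 RPM in brain, 9690.4 RPM in slow muscle) and gonad (1979 RPM in ovaries, 124 RPM in testes). Alternatives were other denominators, among them annotated reads scaled by TMM in edgeR, other match classes and other minimum levels. The code for intervals and counts was checked on simulated independent counts of names with many reads. That check did not cover counts of 0 or the spread between fish.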

Additional observations from a re-analysis of the deposited data

How the results depend on the processing

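Of 151 recomputed values, 88 stayed within the counting interval of the value reported, or within 1.5 times for counts of names, 59 moved and 4 changed direction. The 4 were ratios of miR-338-3p to the ovaries. Heart over ovaries was 1.64 as reported, 0.528 per annotated read, 0.518 with TMM scaling and 0.453 per known miRNA read of the study's read table, and intestine over ovaries was 3.16 as reported and 0.868 per known miRNA read. The ratio of miR-338-3p in brain over slow muscle was 2.19 per annotated read, 2.43 with TMM scaling and 2.08 from reads identical to the mature entry, against 2.03 as reported. The level of miR-338-3p in brain was 35755 RPM of annotated reads, 38428 RPM with TMM scaling and 14596 RPM of the known miRNA reads in the study's read table, because these denominators are smaller. It was 7374 RPM from reads identical to the mature entry and 12932 RPM with the reads named mir-3065 added, a choice made once the data had been seen. The 3p share of miR-338 in brain was 100% from recorded arms, since no 5p read was recorded as mature. With precursor reads placed it was 99.5%. Alternatives that kept to recorded arms could not change this share in any library, and they are among the 88 values. The number of names at least 2-fold higher in brain than in slow muscle was 129 at a minimum of 10 RPM and 26 at 1000 RPM, against 75 of 170. The minimum also sets how many names are compared, so these counts do not show whether the share of 44.1% changed. The ratio of miR-219-5p in brain over eye stayed within its interval under each alternative. Sequences filed under several miRNA names included no member, so leaving them out changed none of the member values. No paired analysis was possible because each tissue had 1 library, and no library could be left out of a group. Depth limited the testes, with 50 reads of mir-338, and the eye, with 6 reads of miR-219-5p.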
